A study of Rattus norvegicus with 12 samples.

Results

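The response of male rat liver to dexamethasone, a synthetic glucocorticoid, was measured on 6 of the 12 arrays of the series, chosen by their labels as the male vehicle and the male dexamethasone arrays. Every non-control probe was used, 41012 on each array, which gave 24296 genes after dim probes were left out. The animals were Sprague-Dawley rats, 8 to 10 weeks old, whose adrenal glands had been removed, so that vehicle and treated groups alike lacked adrenal corticosterone. Each received 1 intraperitoneal injection, either of phosphate-buffered saline (the vehicle, 400 µl) or of dexamethasone at 1 mg/kg, and the liver was taken after 6 h. Each array carried liver RNA pooled from 3 animals (9 animals per group), and 3 arrays made up a group. The p-values therefore rest on the spread between pools, and differences between animals within a pool are not seen. The 6 female arrays came from adrenalectomized females in diestrus given the same injections. They entered the filter on dim probes, the choice of probe for a gene, the estimate of the spread and the comparison of the sexes. Through this filter 96 of the tested genes were below background on every male array.

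Glucocorticoids bind the glucocorticoid receptor, a nuclear receptor held in the cytosol by heat shock proteins and their co-chaperones. The bound receptor enters the nucleus, raises transcription at genes with glucocorticoid response elements and lowers it at many inflammatory genes, in part by acting on NF-kappaB and AP-1. In liver this hormone is best known for the enzymes of amino acid breakdown and glucose production during fasting and stress, and as a drug for the suppression of inflammation.

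Single-colour Agilent rat arrays were read as log2 intensity relative to the 75th percentile of each array, so a value of 0 lies at that percentile, negative values are dimmer, and values compare arrays and not probes. Between 53% and 69.7% of the spots of a male array were well above background, and the arrays of slide 5 (replicate 3 of both groups) were dimmer, at 53% and 58.3%, than the other 4, at 63.3% or more. Array profiles correlated at 0.957 to 0.984 within a treatment and at 0.924 to 0.949 between treatments. The first principal component of the 6 arrays, with 48.6% of the variance, separated the treatments, and the next, with 24.3%, had its highest values on the slide 5 arrays. Slide 1 carried vehicle 2 and dexamethasone 1, slide 2 dexamethasone 2 and slide 3 vehicle 1. No male spot was saturated. The tissue label was checked by the level of hepatocyte markers, and all 12 listed genes were measured. The log2 of their summed intensity ran from 12.23 to 13.12 after vehicle and from 12.72 to 13.08 after dexamethasone. Albumin, Alb, read 9.08, 9.95 and 10.17 after vehicle and 9.83, 9.80 and 9.99 after dexamethasone. The difference between treatments does not bear on the label. Of the 12 genes 0 rose and 0 fell, with a median difference of 0.19 (-0.08 with slide as a block, -0.18 within slide 1 and 0.02 within slide 5).

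Within 6 h dexamethasone altered the expression of a large share of liver genes, in both directions. At an adjusted p under 0.05 (limma, Benjamini-Hochberg over all genes), 4895 of 24296 genes differed, or 20.1% of those tested, with 2269 higher (9.34%) and 2626 lower (10.8%). These shares are the background against which the gene groups below are read, and the median difference of all genes was 0.01. The upward changes reached further: 1371 genes rose and 1645 fell at least 2-fold, but 168 rose and 78 fell at least 8-fold, and 21 rose and 5 fell at least 32-fold. Among all genes tested, the groups were free of overlap for 35.1%, and among the called genes for 4873. Calls were also more frequent among bright genes, from 12.8% in the dimmest to 25.4% in the brightest of 4 equal groups ordered by intensity. In the text, a difference is the dexamethasone mean minus the vehicle mean on the log2 scale ± its standard error (SE) from the fit, with 3 arrays per group, and a gene "rose" or "fell" where it passed this threshold.

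**Figure D1:**
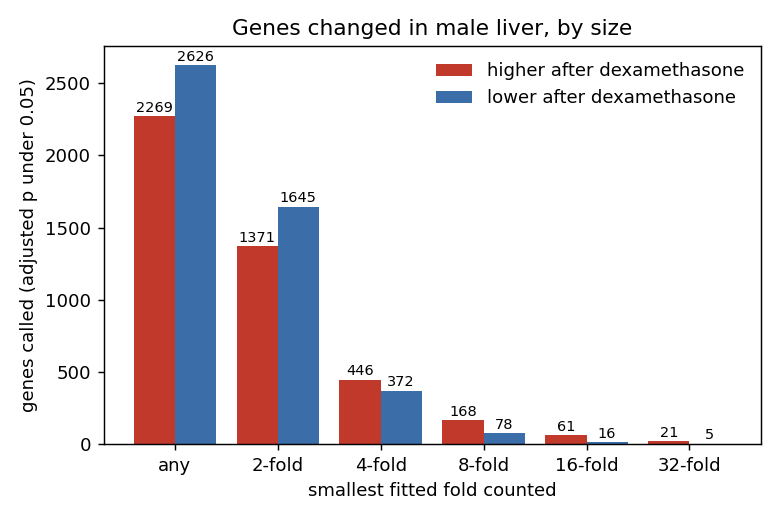
Number of genes called in male liver (vertical axis) among those whose fitted difference reached the fold on the horizontal axis, for genes higher (red bars) and lower (blue bars) after dexamethasone. Lower calls outnumber higher ones among all calls, 2626 against 2269, and higher calls outnumber lower ones from 4-fold upward, 446 against 372.

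The receptor's own gene, Nr3c1, fell and Fkbp5, a well-known direct target, rose. Nr3c1, the glucocorticoid receptor, read 2.75, 2.41 and 2.89 after vehicle and 1.41, 1.29 and 1.45 after dexamethasone. All vehicle arrays lay above all dexamethasone arrays, a difference of -1.30 ± 0.17, adjusted p = 0.000446. Fkbp5, the co-chaperone that lowers the receptor's affinity for its ligand, read 1.26, 1.02 and 1.30 after vehicle and 5.19, 5.21 and 5.69 after dexamethasone (4.17 ± 0.18, adjusted p = 3.08e-06). Its groups lay nearly 4 units apart. Of the 21 genes for the receptor, its chaperones and the enzymes that supply its ligand, 4 rose and 1 fell. The share called was 23.8%, near the 20.1% of all genes. H6pd, which makes the cofactor for ligand regeneration in the endoplasmic reticulum, rose (0.96 ± 0.16), as did the coactivator Ep300 (1.06 ± 0.20). Hsd11b1, the enzyme that regenerates active glucocorticoid, did not pass and read 7.46, 7.70 and 7.58 after vehicle and 7.80, 7.57 and 7.87 after dexamethasone. The chaperone Hsp90ab1 did not pass either (0.23 ± 0.42, adjusted p = 0.784). Of this list, 3 fell without vehicle 1 or dexamethasone 2. In the receptor and chaperone list 5 rose and 7 fell with slide as a fixed block and 4 rose and 5 fell with another background correction, normexp.

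Most genes known as direct glucocorticoid-induced regulators were raised. Of 31 tested, 18 rose, 3 fell and 10 did not pass, and their median difference was 1.08 against 0.01 for all genes. Tsc22d3, which encodes the anti-inflammatory leucine zipper GILZ, read 3.51, 2.93 and 2.75 after vehicle and 6.23, 6.36 and 6.21 after dexamethasone. Per1, the clock repressor, read -1.36, -1.77 and -1.54 after vehicle and 1.54, 1.39 and 1.52 after dexamethasone. In both genes each dexamethasone array lay more than 2 units above the highest vehicle array. Sgk1, a kinase that regulates ion transport, read 2.18, 2.36 and 2.62 after vehicle and 5.14, 5.01 and 4.58 after dexamethasone (2.53 ± 0.28, adjusted p = 0.000186). Dusp1, the phosphatase that switches off stress kinases, read 1.42, -0.26 and -0.20 after vehicle and 3.84, 2.78 and 2.61 after dexamethasone (2.76 ± 0.62, adjusted p = 0.01), with vehicle 1 well above the other vehicle arrays. Klf9, a repressor that feeds back on the hormone response, moved least among these, with 3.07, 2.60 and 3.104 after vehicle and 3.75, 3.77 and 4.10 after dexamethasone (0.95 ± 0.19, adjusted p = 0.00564). Zbtb16, a zinc finger repressor long used as a glucocorticoid marker, read -3.06, -6.89 and -4.57 after vehicle and -0.52, -0.08 and 1.06 after dexamethasone. Its vehicle arrays were spread over almost 4 units and still did not overlap with the treated ones (4.99 ± 0.84, adjusted p = 0.00213). Cdkn1a, the cyclin-dependent kinase inhibitor p21, is not among the 31 and belongs to the list of G1 and p53-related genes. It read -0.16, 0.26 and 0.31 after vehicle and 4.97, 5.06 and 5.44 after dexamethasone and rose 32.4-fold (5.02 ± 0.24, adjusted p = 2.91e-06). The 3 of the 31 that fell were Irs2, Angptl4 and Sult1e1, the last chosen after its value was seen. In this list 1 fell without vehicle 2, dexamethasone 1 or dexamethasone 2. Signals were well above background on 2 of 3 vehicle arrays for Zbtb16.

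Several genes often listed as glucocorticoid targets did not pass the test in these livers, and Pdk4 fell. Mt1, a metallothionein, read 7.65, 8.12 and 8.53 after vehicle and 8.20, 9.00 and 9.29 after dexamethasone, with overlapping groups (0.73 ± 0.37, adjusted p = 0.212). Igfbp1, an insulin-suppressed binding protein of the IGF system, read 3.22, 5.24 and 2.72 after vehicle and 4.08, 4.54 and 3.73 after dexamethasone (0.39 ± 0.54, adjusted p = 0.703), and the highest value of all 6 was vehicle 2. Ppargc1a, a coactivator of gluconeogenesis, read -4.68, -4.08 and -3.60 after vehicle and -3.41, -3.34 and -2.71 after dexamethasone (0.96 ± 0.35, adjusted p = 0.08). The repressor Bcl6 read 4.28, 4.29 and 1.40 after vehicle and 4.94, 4.94 and 4.99 after dexamethasone, where vehicle 3 lay far under the other vehicle arrays (1.63 ± 0.62, adjusted p = 0.0924). Its difference was 0.64 within slide 1 and 3.59 within slide 5. Pdk4, the kinase that blocks pyruvate use and is commonly induced by glucocorticoids, fell, with -2.16, -0.97 and -0.76 after vehicle and -4.84, -4.27 and -5.22 after dexamethasone (-3.48 ± 0.42, adjusted p = 0.000309). Mt2A was not analysed here. With slide as a block the genes that changed sides of the threshold were Ppargc1a 0.83 (adjusted p = 0.0359) and Bcl6 2.29 (adjusted p = 0.0421). Background was clearly exceeded on 2 of 3 vehicle arrays for Ppargc1a and 1 of 3 dexamethasone arrays for Pdk4.

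**Figure D2:**
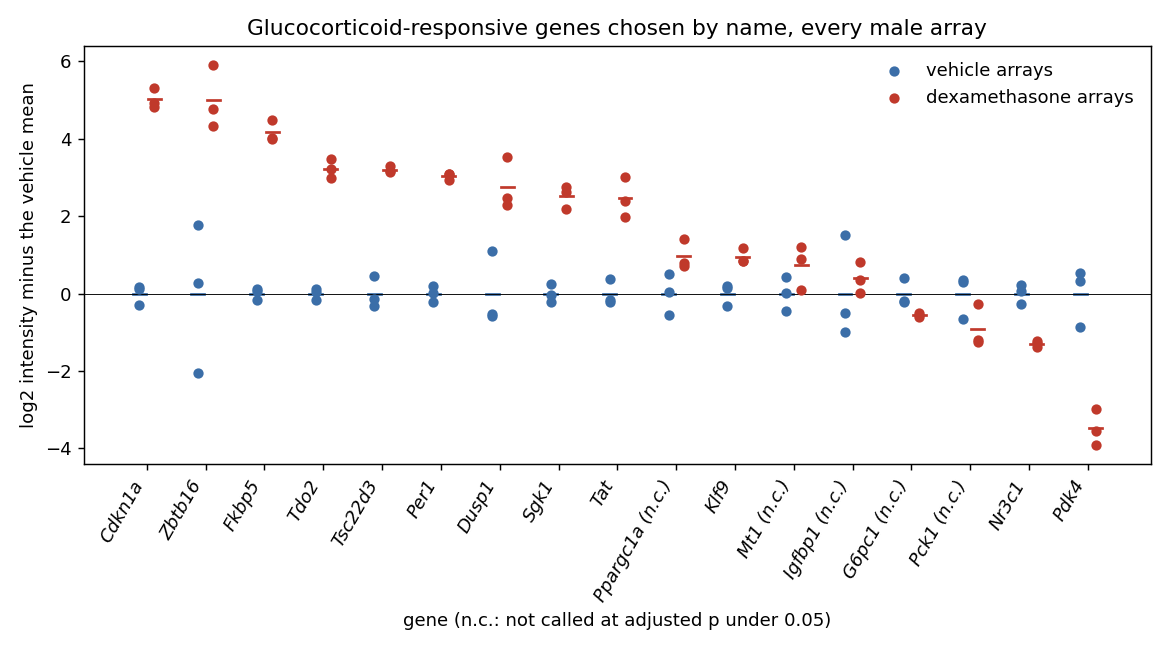
Log2 intensity of each male array minus the vehicle mean of the gene (vertical axis) for 17 glucocorticoid-related genes (horizontal axis; n.c. marks genes that did not pass). Blue points are the 3 vehicle arrays, red points the 3 dexamethasone arrays and bars the group means; the means of Cdkn1a, Zbtb16 and Fkbp5 lie more than 4 units above vehicle and that of Pdk4 more than 3 units below it.

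Few of the promoters of the raised genes held a close match to the glucocorticoid response element. The motif searched on both strands was AGAACA, 3 bases of any kind, then TGTTCT, which is its own reverse complement, with up to 2 of the 12 fixed letters different, in RefSeq promoters of build GRCr8 that run from 250 bases before to 50 after the gene start. It was found in 1.73% of all 27457 promoters, in 0.923% of the 9754 promoters of tested genes, in 1.45% of 967 promoters of genes that rose, in 0.864% of 1158 of genes that fell and in 0.865% of 7629 of genes that did not pass. Among genes that rose at least 2-fold it was in 9 of 551 (1.63%), and none of the tested promoters held it without a difference. The first 6 letters alone, on either strand, were in 14.2% of promoters of raised genes, 12.1% of lowered genes and 13.4% of those that did not pass. The windows of Fkbp5, Tsc22d3, Per1, Tat, Tdo2 and Cdkn1a held no match at this limit, which says only that these letters are not in these windows. Of the 9, 4 are printed to show where such letters lie, with the 12 fixed positions in capitals: Tlr6, the one with a single difference, Psma6, and, chosen after their values were seen, Acsbg3 and Kcnab3, which had the largest differences of the 9:
Tlr6 (chr14:43715716-43715790, plus strand, motif 63 bases before the start): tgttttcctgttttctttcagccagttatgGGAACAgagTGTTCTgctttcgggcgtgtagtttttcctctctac
Psma6 (chr6:78514097-78514168, plus strand, motif 223 bases before the start): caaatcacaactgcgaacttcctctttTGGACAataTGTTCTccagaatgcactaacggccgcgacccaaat
Acsbg3 (chr9:1802707-1802781, plus strand, motif 7 bases before the start): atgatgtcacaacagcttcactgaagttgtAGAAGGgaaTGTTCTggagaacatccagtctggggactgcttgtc
Kcnab3 (chr10:54546431-54546505, plus strand, motif 177 bases before the start): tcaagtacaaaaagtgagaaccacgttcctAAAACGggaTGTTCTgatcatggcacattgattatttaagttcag
Counted from 1 at the first letter of the motif, Tlr6 differs by A1G, Psma6 by A1T and A3G, Acsbg3 by C5G and A6G, and Kcnab3 by G2A and A6G. Tlr6, a Toll-like receptor that recognizes bacterial lipopeptides with Tlr2, read -0.07, 0.05 and -0.13 after vehicle and 2.71, 2.52 and 3.11 after dexamethasone (2.83 ± 0.24, adjusted p = 3.31e-05). Psma6, a subunit of the proteasome core, read 6.37, 6.44 and 6.52 after vehicle and 7.45, 7.31 and 7.73 after dexamethasone (1.06 ± 0.16, adjusted p = 0.00129). Acsbg3 (adjusted p = 9.78e-05) and Kcnab3 (adjusted p = 0.000144) were below background on all vehicle arrays and rose at least 3.72-fold and at least 7.25-fold, the former with 2 of 3 dexamethasone arrays well above background.

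Amino acid breakdown was raised at chosen steps rather than along whole pathways. Of 53 degradation genes 12 rose and 3 fell, with a median of 0.06 (0.21 with slide as a block, 0.15 within slide 1 and 0.30 within slide 5). Tat, which begins tyrosine breakdown, read 2.73, 3.33 and 2.79 after vehicle and 5.96, 5.35 and 4.93 after dexamethasone (2.46 ± 0.32, adjusted p = 0.000429). Tdo2, which opens the tryptophan ring, read 6.43, 6.65 and 6.72 after vehicle and 9.82, 9.58 and 10.08 after dexamethasone (3.23 ± 0.18, adjusted p = 3.97e-06). The treated arrays lay over 2 units above the vehicle arrays in both genes apart from Tat on dexamethasone 3. Got1, the cytosolic aspartate aminotransferase, read 3.82, 4.03 and 3.97 after vehicle and 7.77 and 7.29 after dexamethasone (replicate 2 missing) (3.59 ± 0.19, adjusted p = 5.83e-06); the fit dropped dexamethasone 2, whose spot the scanner software marked as an outlier. Sds, which turns serine into pyruvate, read 1.49, 1.52 and 1.83 after vehicle and 4.45, 3.81 and 4.83 after dexamethasone (2.75 ± 0.38, adjusted p = 0.000665). Acmsd, which steers the tryptophan path away from NAD, rose too (2.97 ± 0.53, adjusted p = 0.00303). Hal, the first enzyme of histidine breakdown, fell (5.89, 5.40 and 6.44 after vehicle and 4.11, 4.05 and 4.69 after dexamethasone, -1.63 ± 0.36, adjusted p = 0.00929). Bhmt, the betaine and homocysteine methyltransferase (0.72 ± 0.24, adjusted p = 0.0561), and Glud1, glutamate dehydrogenase (0.39 ± 0.17, adjusted p = 0.147), did not pass.

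Most urea cycle genes rose. Of 8 tested, 5 rose and 1 fell, and the median difference was 1.32. Slc25a15, which carries ornithine into mitochondria, read 3.91, 4.29 and 3.98 after vehicle and 8.18, 7.62 and 7.54 after dexamethasone (3.72 ± 0.22, adjusted p = 4.87e-06). Ass1, which joins citrulline and aspartate, read 5.86, 5.53 and 5.72 after vehicle and 7.69, 7.53 and 7.92 after dexamethasone (2.01 ± 0.17, adjusted p = 3.73e-05), and Asl, which splits the product, 3.43, 4.12 and 3.79 after vehicle and 5.63, 4.82 and 5.07 after dexamethasone (1.39 ± 0.26, adjusted p = 0.00362). None of these groups overlapped. Arg2, the mitochondrial arginase, was below background on every vehicle array and read -6.60, -6.32 and -6.15 after vehicle and -0.79, -1.47 and -0.75 after dexamethasone, at least 12.5-fold higher (adjusted p = 3.08e-06). Cps1, the entry step, did not pass: it read 3.80, 3.20 and 3.68 after vehicle and 5.76, 4.84 and 3.82 after dexamethasone, and dexamethasone 3 lay close to the highest vehicle array (1.25 ± 0.58, adjusted p = 0.168). Nags, which makes the activator of that step, did not pass (0.32 ± 0.19, adjusted p = 0.296). The gene that fell was Otc, ornithine transcarbamylase, chosen after its value was seen, and its call was lost without vehicle 2, vehicle 3, dexamethasone 2 or dexamethasone 3.

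The enzymes specific to glucose production did not pass the test. Of 23 gluconeogenic genes 4 rose and 0 fell (17.4% called, against 20.1% of all genes), and those that rose were the aminotransferases Got1 and Gpt, Sds and the malate dehydrogenase Mdh1. Gpt, alanine aminotransferase, read -1.23, -1.87 and -1.01 after vehicle and 0.82, 0.14 and 1.03 after dexamethasone (2.03 ± 0.39, adjusted p = 0.00453). Pck1, the carboxykinase, read 5.88, 6.83 and 6.89 after vehicle and 5.27, 5.34 and 6.27 after dexamethasone, and vehicle 1 lay beneath dexamethasone 3 (-0.90 ± 0.40, adjusted p = 0.146). G6pc1, the phosphatase that releases glucose, read 6.98, 7.62 and 7.02 after vehicle and 6.70, 6.66 and 6.59 after dexamethasone (-0.56 ± 0.26, adjusted p = 0.174). Its vehicle arrays all lay above its dexamethasone arrays, yet the difference did not pass. Fbp1, fructose bisphosphatase (-0.16 ± 0.19, adjusted p = 0.638), and Pc, pyruvate carboxylase (-0.39 ± 0.19, adjusted p = 0.178), did not pass. Mdh1 rose less (0.72 ± 0.22, adjusted p = 0.0409). The call was lost for Mdh1 without any of the 6 arrays (adjusted p up to 0.133). With slide as a block the genes that changed sides of the threshold were Pck1 -1.16 (adjusted p = 0.0205) and Pc -0.48 (adjusted p = 0.0462).

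Genes that direct glucose between use and storage moved both ways. Among 28 glucose use genes 5 rose and 6 fell. Pfkfb1, the liver enzyme that sets fructose 2,6-bisphosphate, read 4.97, 4.25 and 3.67 after vehicle and 6.82, 6.87 and 7.09 after dexamethasone (2.63 ± 0.31, adjusted p = 0.000269). The glucose transporter Slc2a1 rose as well (-0.12, -0.50 and 0.84 after vehicle and 2.08, 2.35 and 2.79 after dexamethasone, 2.33 ± 0.39, adjusted p = 0.00199), the hexokinase Hk3, found mainly in white blood cells, fell (-2.62 ± 0.38, adjusted p = 0.000872) and the liver transporter Slc2a2 did not pass (0.15 ± 0.21, adjusted p = 0.706). Of 19 glycogen genes 2 rose and 4 fell. Ppp1r3c, which brings a phosphatase to glycogen, read -0.43, -0.995 and -1.50 after vehicle and 2.61, 1.90 and 2.01 after dexamethasone (3.15 ± 0.31, adjusted p = 8.48e-05). Stbd1, a glycogen-binding protein of lysosomal turnover, read 5.12, 4.81 and 4.93 after vehicle and 2.999, 3.05 and 2.92 after dexamethasone (-1.96 ± 0.19, adjusted p = 8.08e-05). Gys2, the liver glycogen synthase, fell (6.76, 6.24 and 6.53 after vehicle and 5.66, 5.51 and 5.81 after dexamethasone, -0.85 ± 0.17, adjusted p = 0.00609), and so did Ugp2, which makes its substrate (-1.46 ± 0.31, adjusted p = 0.00812). Of 28 insulin pathway genes 5 rose and 3 fell. Cblb, a ubiquitin ligase, rose (2.03 ± 0.19, adjusted p = 6.02e-05), as did Pik3r1, the regulatory subunit of PI3 kinase (1.18 ± 0.20, adjusted p = 0.00228). Irs2, the main hepatic insulin receptor substrate, fell (-0.92 ± 0.29, adjusted p = 0.0452), and so did Grb14, which restrains the insulin receptor (-1.07 ± 0.26, adjusted p = 0.0146). In the insulin list 3 rose without dexamethasone 3, and 1 fell without vehicle 2, dexamethasone 2 or dexamethasone 3. In the insulin and FOXO list 4 rose and 1 fell with normexp. Leaving out 1 array ended the call of Irs2 without vehicle 2, vehicle 3, dexamethasone 1, dexamethasone 2 or dexamethasone 3 (adjusted p up to 0.149) and Grb14 without vehicle 2 or dexamethasone 3 (adjusted p up to 0.0571). Within slides 1 and 5 the differences were -1.29 and -1.43 for Irs2. A signal well above background was seen on 2 of 3 dexamethasone arrays for Hk3.

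Amino acid carriers also moved both ways: of 29 tested, 5 rose and 7 fell. Slc38a2, the sodium-coupled neutral amino acid carrier, read 2.46, 2.91 and 1.96 after vehicle and 5.04, 4.83 and 4.99 after dexamethasone (2.51 ± 0.23, adjusted p = 5.51e-05). Slc16a10, the aromatic amino acid carrier, read -2.10, -0.55 and 0.03 after vehicle and 2.28, 1.66 and 1.83 after dexamethasone (2.79 ± 0.48, adjusted p = 0.00233). Slc43a2, a carrier of large neutral amino acids, fell (-2.43 ± 0.31, adjusted p = 0.000411), as did Slc7a7, a partner in cationic amino acid export (-2.51 ± 0.57, adjusted p = 0.011). Slc38a4 (0.54 ± 0.39, adjusted p = 0.41) and Slc6a13 (-0.41 ± 0.24, adjusted p = 0.296) did not pass. Slc3a2, the heavy chain shared by several carriers, rose (4.11, 4.46 and 2.996 after vehicle and 5.95, 5.77 and 5.75 after dexamethasone, 1.97 ± 0.32, adjusted p = 0.00186). The differences within slide 1 and within slide 5 were 2.82 and 1.81 for Slc16a10. Spots stood well above background on 2 of 3 dexamethasone arrays for Slc7a7.

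More genes of lipid droplets and fatty acid release rose than fell, whereas lipogenic genes fell more often. In the lipid droplet list 6 of 27 rose and 2 fell. Pnpla2, the lipase that starts triglyceride breakdown, read -0.59, 0.55 and 0.09 after vehicle and 3.21, 3.09 and 3.02 after dexamethasone (3.09 ± 0.25, adjusted p = 2.76e-05). Plin5, a droplet coat protein, read -2.82, -2.26 and -2.92 after vehicle and 0.95, 0.96 and 0.79 after dexamethasone (3.57 ± 0.30, adjusted p = 3.64e-05), and Cidea, which enlarges droplets, 1.68, 1.36 and 1.01 after vehicle and 5.02, 4.32 and 5.36 after dexamethasone (3.55 ± 0.27, adjusted p = 1.99e-05). All 3 genes separated the treatments by more than 2 units. The carboxylesterase Ces2c read 0.08, 1.35 and 1.63 after vehicle and 7.66, 7.09 and 6.99 after dexamethasone (6.23 ± 0.37, adjusted p = 9.23e-06). Lpin1, the phosphatidate phosphatase, read 2.06, 1.98 and 1.69 after vehicle and 4.88, 4.94 and 4.60 after dexamethasone (2.89 ± 0.18, adjusted p = 6.38e-06), and its relative Lpin2 fell (-1.60 ± 0.22, adjusted p = 0.000707). In the lipogenesis list 2 of 33 rose and 9 fell, with a median of -0.52. Srebf1, the factor that drives lipogenic genes, read 6.20, 5.08 and 4.90 after vehicle and 3.78, 3.51 and 3.71 after dexamethasone (-1.73 ± 0.32, adjusted p = 0.0035). Mid1ip1, an activator of acetyl-CoA carboxylase, fell further (-2.39 ± 0.33, adjusted p = 0.000635). Without vehicle 3 and dexamethasone 3, the slide 5 arrays, with the female arrays of that slide left out too, 15 genes of the lipogenesis list fell and 1 rose. In the lipogenesis list 4 rose and 14 fell with slide as a fixed block. Signals were well above background on 2 of 3 dexamethasone arrays for Lpin2.

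Cholesterol genes fell more often than they rose. Of 32 tested, 3 rose and 10 fell (median -0.64). Hmgcs1, the first committed synthase, read 6.88, 7.17 and 6.17 after vehicle and 4.84, 5.49 and 4.43 after dexamethasone (-1.82 ± 0.33, adjusted p = 0.0032). Soat2, which esterifies cholesterol, fell (-2.08 ± 0.28, adjusted p = 0.000524), as did Insig2, which holds the sterol sensor in the endoplasmic reticulum (-1.97 ± 0.34, adjusted p = 0.00233). Of these, 5 fell without dexamethasone 3 and 6 fell without vehicle 1 or vehicle 2. Of 42 fatty acid oxidation and ketogenesis genes 3 rose and 6 fell, 21.4% called and so near the 20.1% of all genes. Pex11a, which promotes peroxisome division, rose (0.57, 0.26 and 0.46 after vehicle and 4.04, 3.86 and 3.52 after dexamethasone, 3.38 ± 0.30, adjusted p = 5.27e-05). Fgf21, the fasting hormone of the liver, read 3.92, 3.69 and -0.11 after vehicle and -2.23, -1.83 and -2.12 after dexamethasone (-4.56 ± 0.91, adjusted p = 0.00555), and vehicle 3 lay far beneath the other vehicle arrays. Of 23 apolipoprotein and lipoprotein assembly genes 0 rose and 1 fell, Apobec1, which edits the apolipoprotein B message (-0.67 ± 0.18). In the cholesterol list 5 rose and 14 fell with slide as a fixed block. In the apolipoprotein list 6 fell with slide as a fixed block and 3 fell with normexp. The call was lost for Apobec1 without vehicle 1, dexamethasone 2 or dexamethasone 3 (adjusted p up to 0.0868). Taken within slides 1 and 5, the differences were -5.93 and -2.004 for Fgf21 and -0.41 and -0.60 for Apobec1.

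Bile acid synthesis genes fell more often than they rose. Of 23 genes 3 rose and 7 fell. Cyp7a1, the rate-limiting hydroxylase of the classical branch, read 3.42, 2.62 and 2.56 after vehicle and 1.45, 0.87 and 0.16 after dexamethasone (-2.04 ± 0.37, adjusted p = 0.00337). Cyp8b1, which sets the share of cholic acid, read 2.81, 3.39 and 3.40 after vehicle and 0.61, -0.08 and 0.59 after dexamethasone (-2.83 ± 0.25, adjusted p = 4.52e-05), and Amacr, the racemase of side-chain shortening, 6.80, 7.40 and 7.81 after vehicle and 4.17, 4.23 and 4.38 after dexamethasone (-3.07 ± 0.27, adjusted p = 4.52e-05). Neither gene's groups overlapped. Cyp7b1, of the alternative branch, rose, with -6.37, -3.81 and -6.22 after vehicle and -0.55, -1.38 and -0.94 after dexamethasone (4.51 ± 0.63, adjusted p = 0.000683). Nr0b2, the repressor SHP, did not pass (-0.48 ± 0.53, adjusted p = 0.609). Within slides 1 and 5 the differences were -1.17 and -2.40 for Cyp7a1. Background was clearly exceeded on 1 of 3 vehicle arrays for Cyp7b1.

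Hepatic carriers fell more often than they rose, and P450 genes moved both ways. Of 39 transporters 3 rose and 14 fell (median -0.69). Slc13a5, the citrate carrier, rose against this trend and read 0.47, -1.57 and -1.44 after vehicle and 4.22, 3.03 and 3.53 after dexamethasone (4.44 ± 0.50, adjusted p = 0.000203). Slc29a1, the nucleoside carrier, read 5.13, 4.40 and 4.90 after vehicle and 2.49, 2.82 and 3.104 after dexamethasone (-2.01 ± 0.23, adjusted p = 0.000192). The bile acid carrier Slc10a2 fell (-2.57 ± 0.39, adjusted p = 0.00116), the efflux pump Abcb1a was below background on every dexamethasone array, at least 1.58-fold lower (adjusted p = 0.00141), and Abcc2, the canalicular pump, did not pass (0.25 ± 0.29, adjusted p = 0.627). Among the transporters 1 rose without dexamethasone 3, and 8 fell without vehicle 2 and 9 fell without vehicle 3 or dexamethasone 3. Of 46 P450 genes and their partners 6 rose and 5 fell, 23.9% called and so near the 20.1% of all genes. Por, the reductase that feeds electrons to the P450s, read 3.71, 4.10 and 4.64 after vehicle and 6.50, 6.37 and 6.58 after dexamethasone (2.33 ± 0.23, adjusted p = 8.41e-05). Arnt, the partner of the dioxin receptor, rose (4.21 ± 0.71, adjusted p = 0.00221), and the nuclear receptor Nr1i3, CAR, fell (1.77, 1.47 and 2.07 after vehicle and 0.56, 0.49 and 0.75 after dexamethasone, -1.17 ± 0.26, adjusted p = 0.00917). The abundant male P450 genes Cyp2c13 (-0.20 ± 0.47, adjusted p = 0.835) and Cyp3a2 (-0.40 ± 1.17, adjusted p = 0.87) did not pass, and near-identical relatives may share their probes' signal. In the P450 list 2 fell without vehicle 3, dexamethasone 2 or dexamethasone 3 and 3 fell without vehicle 2 or dexamethasone 1. In the P450 list 5 rose and 12 fell with slide as a fixed block and 7 rose and 2 fell without the arrays of slide 5. A signal well above background was seen on 2 of 3 vehicle arrays for Arnt.

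Lower calls outnumbered higher ones among conjugation and oxidative stress genes. Of 50 conjugating enzyme genes 1 rose and 9 fell, a share called near the background. Sult2a1, the hydroxysteroid sulfotransferase, read 3.63, 1.91 and 2.50 after vehicle and -0.12, -0.39 and -1.92 after dexamethasone (-3.49 ± 0.56, adjusted p = 0.00161). Nat8, an acetyltransferase of mercapturic acid formation, fell (-1.84 ± 0.28, adjusted p = 0.00127). Of 30 NRF2 targets 1 rose and 6 fell, 23.3% called and so near the 20.1% of all genes. Osgin1, an oxidative stress response gene, read 4.05, 4.13 and 4.99 after vehicle and -0.65, -0.66 and -0.64 after dexamethasone (-5.04 ± 0.30, adjusted p = 5.22e-06), with the 3 treated arrays within 0.1 units of each other. Nfe2l2, which encodes NRF2 itself, read 3.57, 3.26 and 4.18 after vehicle and 1.83, 1.43 and 1.83 after dexamethasone (-1.97 ± 0.24, adjusted p = 0.00029), and Sqstm1, an autophagy adaptor, 5.81, 6.11 and 5.65 after vehicle and 4.67, 4.58 and 4.68 after dexamethasone (-1.21 ± 0.15, adjusted p = 0.00033). In the NRF2 list 3 fell without vehicle 1 or dexamethasone 3. In the conjugating enzyme list 3 rose and 10 fell with slide as a fixed block. The differences within slide 1 and within slide 5 were -2.03 and -4.42 for Sult2a1.

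**Figure D3:**
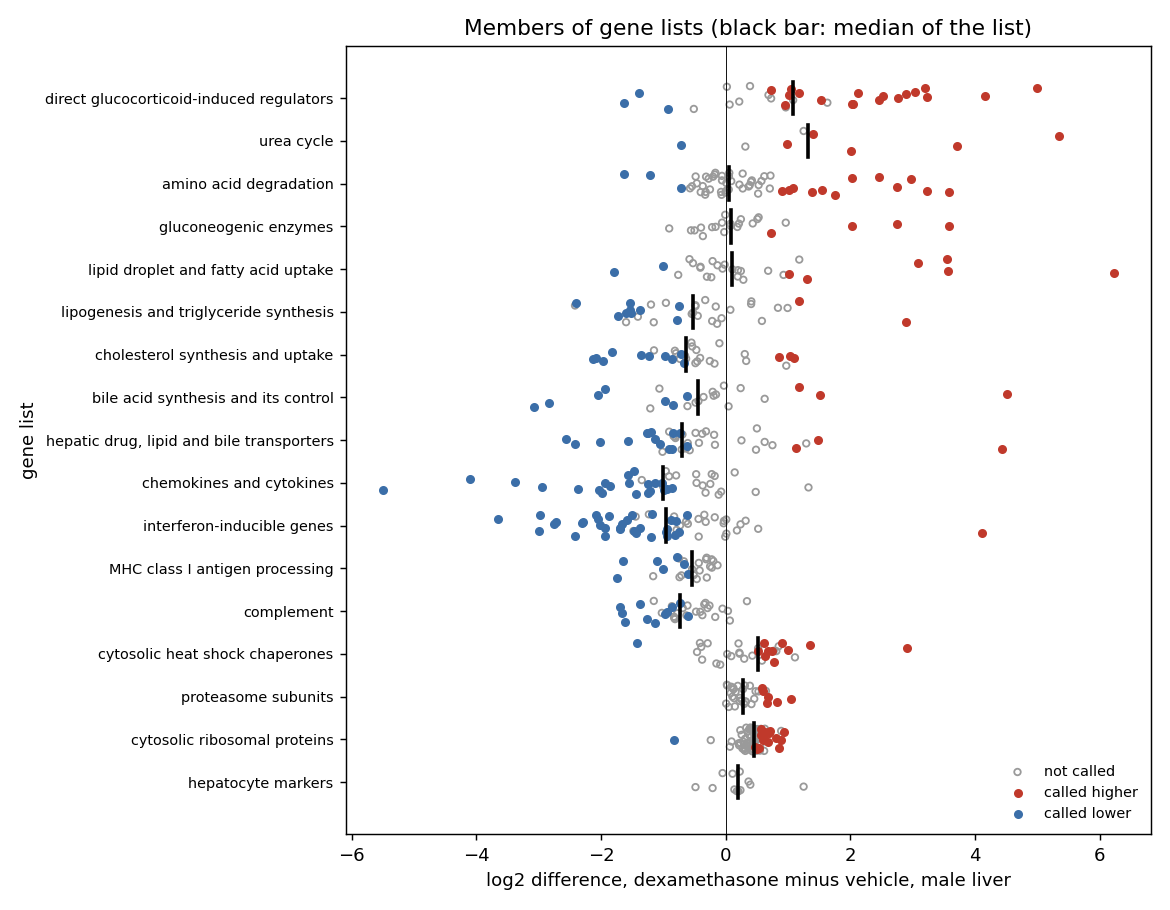
Log2 difference, dexamethasone minus vehicle, of every tested member of 17 gene lists (horizontal axis; 1 list per line on the vertical axis). Red and blue points are members called higher and lower, open points those not called, and black bars the list medians, which run from -1.01 for chemokines and cytokines to 1.32 for the urea cycle.

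Retinoid and cyclic GMP genes held some of the strongest changes. Of 22 retinoid genes 2 rose and 6 fell. Rdh16, a retinol dehydrogenase, read 3.51, 1.74 and 2.35 after vehicle and 6.28, 5.58 and 5.26 after dexamethasone (3.17 ± 0.45, adjusted p = 0.000799), and Dhrs3, which returns retinal to retinol, 4.50, 4.76 and 4.80 after vehicle and 2.95, 2.61 and 2.04 after dexamethasone (-2.15 ± 0.28, adjusted p = 0.000426). Cyp26b1, which clears retinoic acid, was below background on every dexamethasone array (-1.15, -0.53 and 0.03 after vehicle and -4.60, -5.04 and -3.99 after dexamethasone) and was at least 12.5-fold lower (adjusted p = 0.000306). Without dexamethasone 2, 3 of the retinoid genes fell. In the cyclic GMP list of 13, 2 rose and 6 fell. Gucy2c, the guanylin receptor, read -6.52, -5.69 and -6.08 after vehicle and 0.53, 0.39 and -0.64 after dexamethasone, at least 26.6-fold higher (adjusted p = 1.39e-05), and its ligand gene Guca2a rose as well (-2.75, -3.91 and -4.03 after vehicle and -2.27, -1.78 and -2.07 after dexamethasone, 1.52 ± 0.31, adjusted p = 0.00612). Gucy1b2, a subunit of soluble guanylate cyclase, read 1.10, 1.21 and 0.83 after vehicle and -3.90, -3.73 and -5.22 after dexamethasone (-5.33 ± 0.43, adjusted p = 2.79e-05). Npr3, the natriuretic peptide clearance receptor, fell (-1.72 ± 0.42, adjusted p = 0.0161). In the cyclic GMP list 1 rose and 3 fell without the arrays of slide 5. Leaving out 1 array ended the call of Npr3 without vehicle 1 (adjusted p up to 0.0566). With slide as a block Npr3 changed its side of the threshold, with -1.72 (adjusted p = 0.0547). Spots stood well above background on 2 of 3 vehicle arrays for Guca2a, 2 of 3 dexamethasone arrays for Gucy1b2 and 1 of 3 dexamethasone arrays for Npr3.

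Inflammatory genes fell far more often than they rose. Of 38 chemokine and cytokine genes 0 rose and 21 fell, 55.3% called against 20.1% of all genes, with a median of -1.01 (-1.21 with slide as a block, -0.93 within slide 1 and -1.12 within slide 5). Cxcl10, which draws activated T cells, read -0.98, -0.999 and -0.91 after vehicle and -6.68, -6.84 and -5.86 after dexamethasone, at least 9.40-fold lower (adjusted p = 1.13e-05). Ccl2, the monocyte attractant, read -2.998, -2.05 and -2.66 after vehicle and -6.48, -5.76 and -5.58 after dexamethasone, at least 3.08-fold lower (adjusted p = 3.55e-05). Every dexamethasone array of both genes was below background. Xcl1, made by T and NK cells, read -1.73, -1.78 and -1.79 after vehicle and -4.71, -4.23 and -5.20 after dexamethasone (-2.94 ± 0.30, adjusted p = 0.000114), and Cxcl1, the neutrophil attractant, 1.33, 4.16 and -0.28 after vehicle and -3.24, -2.001 and -1.86 after dexamethasone (-4.10 ± 0.89, adjusted p = 0.00866), with vehicle arrays over 4 units apart. Il1rn, the interleukin 1 receptor antagonist, did not pass (0.15 ± 0.29, adjusted p = 0.797). Of 48 genes of the Toll-like receptor, interleukin 1, TNF and NF-kappaB pathways 6 rose and 16 fell. Tlr2, the partner of Tlr6, read -0.56, -0.11 and -0.01 after vehicle and -1.79, -2.46 and -2.91 after dexamethasone (-2.16 ± 0.34, adjusted p = 0.00148), opposite to Tlr6. Nlrc4, an inflammasome sensor, read -0.08, 1.27 and -0.31 after vehicle and -3.72, -3.04 and -5.50 after dexamethasone (-4.38 ± 0.57, adjusted p = 0.000426), and the TNF-induced gene Tnfaip2 1.72, 1.18 and 0.53 after vehicle and -2.46, -2.32 and -2.50 after dexamethasone (-3.57 ± 0.30, adjusted p = 3.57e-05). In bulk liver RNA, fewer cells of a type and less RNA per cell cannot be told apart. Taken within slides 1 and 5, the differences were -7.41 and -1.58 for Cxcl1. Signals were well above background on 1 of 3 dexamethasone arrays for Xcl1 and 2 of 3 dexamethasone arrays for Nlrc4.

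The interferon-inducible list held more lower calls than any other list. Of 55 tested, 32 fell and 1 rose, a call rate of 60.0% with a median of -0.96 (-0.95 with slide as a block, -0.94 within slide 1 and -1.03 within slide 5). Igtp, an immunity-related GTPase, read 0.65, 1.27 and 1.31 after vehicle and -2.61, -3.09 and -2.04 after dexamethasone (-3.66 ± 0.29, adjusted p = 2.44e-05), and Irgm, of the same family, 0.75, 0.95 and 0.21 after vehicle and -1.73, -2.34 and -2.96 after dexamethasone (-2.98 ± 0.41, adjusted p = 0.000609). Rtp4, an interferon-induced chaperone of receptors, read 2.60, 2.18 and 2.29 after vehicle and -0.18, -0.47 and -1.24 after dexamethasone (-2.99 ± 0.27, adjusted p = 5.51e-05). These groups did not overlap. The exception was Ifih1, the sensor of double-stranded viral RNA, which read -1.87, -1.76 and -2.01 after vehicle and 2.26, 2.04 and 2.38 after dexamethasone and rose 17.2-fold (4.11 ± 0.21, adjusted p = 3.25e-06). No antigen presentation gene rose: of 25 class I genes 0 rose and 7 fell, and of 12 class II genes 0 rose and 4 fell. Tap1, which pumps peptides to class I molecules, read 1.25, 1.26 and 0.51 after vehicle and -0.57, -0.33 and -1.03 after dexamethasone (-1.65 ± 0.24, adjusted p = 0.000934). Cd74, the class II invariant chain, read 3.64, 3.64 and 3.89 after vehicle and 2.41, 1.99 and 2.52 after dexamethasone (-1.42 ± 0.30, adjusted p = 0.00705), and the class II gene RT1-Da 3.41, 3.34 and 3.20 after vehicle and 1.91, 1.64 and 1.89 after dexamethasone (-1.50 ± 0.30, adjusted p = 0.00553). B2m, the class I light chain, did not pass (-0.22 ± 0.24, adjusted p = 0.606), and class I genes are close relatives whose probes may share signal. Without vehicle 2, 4 class I genes fell. In the MHC class I list 12 fell with slide as a fixed block and 11 fell with normexp.

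Complement genes fell where they changed, and calls among acute phase genes were near the background. Of 33 complement genes 0 rose and 11 fell (median -0.73), 33.3% called against 20.1% of all genes. C4bpb, a complement regulator, read 6.66, 7.12 and 6.73 after vehicle and 5.39, 5.17 and 5.11 after dexamethasone (-1.61 ± 0.18, adjusted p = 0.000164), and Fcnb, a lectin of the complement system, -0.45, -0.58 and -0.60 after vehicle and -1.91, -2.28 and -2.51 after dexamethasone (-1.69 ± 0.27, adjusted p = 0.00155). C3, the central component, did not pass (0.34 ± 0.33, adjusted p = 0.549). Of the complement genes 5 fell without vehicle 2 or dexamethasone 2 and 7 fell without dexamethasone 3. Of 32 acute phase genes 3 rose and 4 fell, 21.9% called and so near the share of all genes. Orm1, the acid glycoprotein, read 5.25, 4.79 and 3.29 after vehicle and 7.72, 7.43 and 7.33 after dexamethasone (3.05 ± 0.46, adjusted p = 0.00114), the protease trap A2m 5.90, 7.12 and 6.31 after vehicle and 8.86, 9.18 and 9.26 after dexamethasone (2.66 ± 0.55, adjusted p = 0.00665) and angiotensinogen, Agt, 7.56, 7.52 and 7.96 after vehicle and 9.34, 9.39 and 9.76 after dexamethasone (1.82 ± 0.19, adjusted p = 0.000118). Haptoglobin, Hp, did not pass (0.42 ± 0.29, adjusted p = 0.381). In the acute phase list 1 fell without vehicle 2 or dexamethasone 3 and 2 fell without dexamethasone 2. In the IL-6 family list 1 of 12 rose and 3 fell: the receptor Il6r rose (3.24, 3.35 and 3.17 after vehicle and 5.04, 5.68 and 5.80 after dexamethasone, 2.25 ± 0.22, adjusted p = 7.64e-05), and Stat3, its transcription factor, did not pass (0.58 ± 0.31, adjusted p = 0.242). In the acute phase list 3 rose and 7 fell with slide as a fixed block and 3 rose and 2 fell without the arrays of slide 5. In the IL-6 family list 3 rose and 4 fell with slide as a fixed block. Within slides 1 and 5 the differences were 1.74 and 2.95 for A2m.

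Several markers of white blood cells fell beside these immune genes. Of 15 tested of 22 listed T and NK lymphocyte markers 1 rose (granzyme K, Gzmk, named after its value was seen) and 7 fell, and the log2 of their summed intensity ran from 2.85 to 3.26 after vehicle and from 2.37 to 2.70 after dexamethasone. Of 5 tested of 11 listed B and plasma cell markers 3 fell, with sums from -0.46 to 0.01 after vehicle and from -2.05 to -1.01 after dexamethasone. Of 7 tested of 16 listed neutrophil markers 3 fell, with sums from 0.62 to 1.02 after vehicle and from -0.25 to 0.80 after dexamethasone. Of 18 tested of 20 listed Kupffer cell and macrophage markers 3 fell, or 16.7%, against 20.1% called of all genes. The sums of these markers ran from 6.69 to 7.15 after vehicle and from 6.01 to 7.33 after dexamethasone. The lymphocyte and B cell sums did not overlap between treatments, and the neutrophil and Kupffer cell sums did. Of all single genes tested, 35.1% were free of overlap, so this separation alone does not set a list apart. Gzma, granzyme A, read 0.97, 0.98 and 0.50 after vehicle and -1.14, -1.18 and -1.13 after dexamethasone (-1.97 ± 0.23, adjusted p = 0.000259). Cd8a, of cytotoxic T cells, read -2.47, -2.61 and -2.97 after vehicle and -4.51, -5.43 and -4.78 after dexamethasone, at least 2.84-fold lower (adjusted p = 0.000212). Cd3d, a component of the T cell receptor, did not pass (-0.30 ± 0.20, adjusted p = 0.348). S100a9, a neutrophil calcium-binding protein, read -1.62, -1.63 and -2.03 after vehicle and -4.19, -4.64 and -4.70 after dexamethasone, at least 5.06-fold lower (adjusted p = 0.00274). Fcgr1a, the high-affinity IgG receptor of macrophages, read 2.14, 2.10 and 2.44 after vehicle and 0.74, 0.35 and 0.41 after dexamethasone (-1.72 ± 0.26, adjusted p = 0.00113), whereas Clec4f, which is particular to Kupffer cells, did not pass (-0.53 ± 0.36, adjusted p = 0.371). Leaving out arrays singly, 4 fell without vehicle 2 among T and NK markers, 0 fell without vehicle 3 and 1 fell without vehicle 2, dexamethasone 1 or dexamethasone 2 among B and plasma cell markers, and 1 fell without vehicle 2, vehicle 3, dexamethasone 2 or dexamethasone 3 among Kupffer cell markers. The part of these cells in the lower immune genes was not tested. In the T and NK marker list 1 rose and 4 fell with slide as a fixed block and 1 rose and 3 fell with normexp. In the B and plasma cell marker list 1 fell with slide as a fixed block and 0 were called by limma without the arrays of slide 5 and with normexp (2 and 1, in that order, at an unadjusted p under 0.05). In the neutrophil marker list 1 fell with normexp. In the Kupffer cell marker list 1 fell without the arrays of slide 5.

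Other cell types gave mixed readings. Of 16 stellate cell and fibroblast markers 0 rose and 4 fell, among them Lrat, which stores retinol esters (2.73, 3.20 and 3.04 after vehicle and 1.67, 1.88 and 2.16 after dexamethasone, -1.08 ± 0.20, adjusted p = 0.0037), and Pdgfrb (-1.40 ± 0.28, adjusted p = 0.0058), while the collagen gene Col3a1 did not pass (0.10 ± 0.30, adjusted p = 0.88). Of 17 endothelial markers 1 rose, Lyve1 of the sinusoids (0.97, 1.46 and 1.17 after vehicle and 3.17, 2.67 and 2.72 after dexamethasone, 1.66 ± 0.36, adjusted p = 0.00814), and 1 fell, Gata4 (-0.96 ± 0.17, adjusted p = 0.00301). Of 16 bile duct markers 2 rose and 3 fell. Their summed level ran from 7.95 to 8.47 after vehicle and from 6.37 to 7.10 after dexamethasone, without overlap. Single genes were free of overlap in 35.1% of all those tested. The sum adds unlogged intensities, and most of it was Krt18, so it mainly follows that single gene and not the list. Prom1 read -3.37, -3.20 and -2.58 after vehicle and 0.42, -0.05 and 0.72 after dexamethasone (3.41 ± 0.31, adjusted p = 4.96e-05), and Krt18, a keratin that hepatocytes make too, 7.86, 8.38 and 8.16 after vehicle and 6.12, 6.95 and 6.59 after dexamethasone (-1.58 ± 0.27, adjusted p = 0.00245). Erythroid markers counted 1 lower of 8, adipocyte markers 1 higher of 7 and exocrine pancreas markers 0 higher and 0 lower of 7. The summed levels of the stellate, endothelial, erythroid, adipocyte and exocrine pancreas lists overlapped between treatments. In the stellate cell marker list 2 fell with normexp. In the endothelial marker list 2 rose and 3 fell with slide as a fixed block. In the bile duct marker list 1 rose and 5 fell with slide as a fixed block. In the adipocyte marker list 3 rose and 1 fell with slide as a fixed block. The differences within slide 1 and within slide 5 were -1.62 and -0.93 for Pdgfrb.

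**Figure D4:**
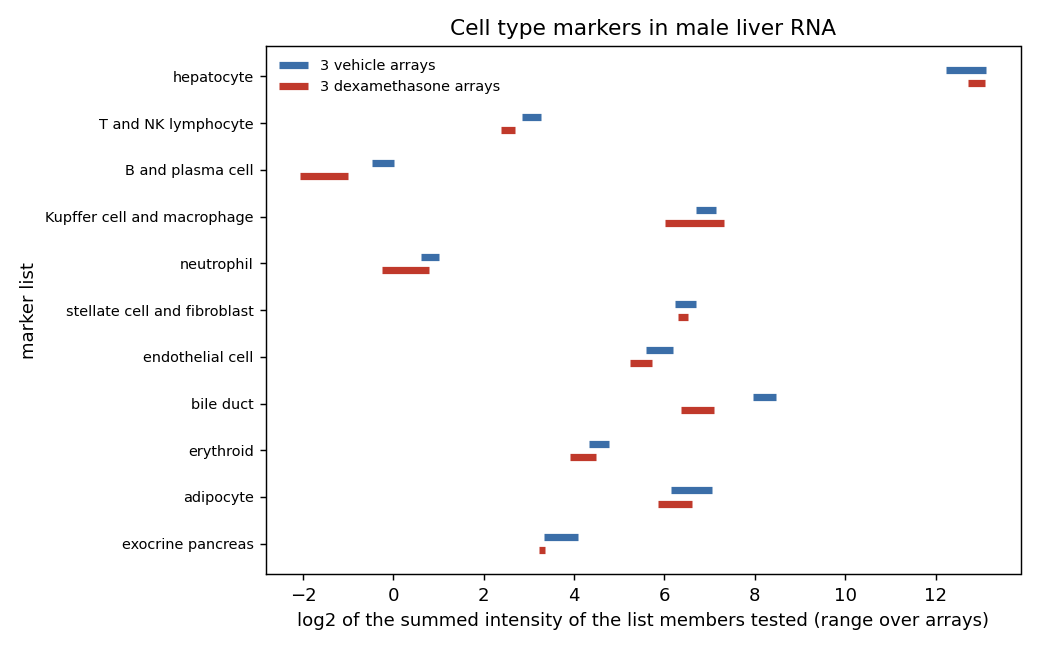
Range over the 3 arrays of each treatment of the log2 summed intensity of the tested markers (horizontal axis) for 11 cell types (vertical axis); blue bars are vehicle and red bars dexamethasone. The T and NK, the B and plasma cell and the bile duct ranges lie lower after dexamethasone without overlap, and the hepatocyte ranges overlap. Among all single genes tested, 35.1% were free of overlap. Most of the bile duct sum is Krt18, which hepatocytes make too.

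Cell cycle entry genes moved in opposite directions. Of 39 G1 and p53-related genes 10 rose and 5 fell. Ccne1, cyclin E, read -0.26, -0.20 and 0.07 after vehicle and 4.42, 4.57 and 4.62 after dexamethasone (4.67 ± 0.20, adjusted p = 1.48e-06), and Gadd45b, a stress-induced growth arrest gene, -0.92, -0.22 and -0.04 after vehicle and 4.04, 3.90 and 4.05 after dexamethasone (4.39 ± 0.38, adjusted p = 4.43e-05). Ccnd1, cyclin D1, read 3.87, 4.02 and 4.73 after vehicle and 0.59, 1.98 and 0.46 after dexamethasone (-3.20 ± 0.42, adjusted p = 0.000474), so that the 2 cyclins of G1 named here went opposite ways. Of 39 replication and mitosis genes 3 rose and 5 fell, 20.5% called against 20.1% of all genes and thus at the background. Melk, a mitotic kinase, rose (-3.42, -3.05 and -4.08 after vehicle and 1.04, 0.76 and 0.07 after dexamethasone, 4.14 ± 0.43, adjusted p = 0.000123), Rfc3, a clamp loader subunit, fell (-1.14 ± 0.18, adjusted p = 0.00133), and Pcna, the clamp, did not pass (0.25 ± 0.14, adjusted p = 0.27). In the replication list 1 rose without vehicle 3 or dexamethasone 2, and 3 fell without vehicle 2, vehicle 3, dexamethasone 2 or dexamethasone 3. In the DNA replication and mitosis list 4 rose and 2 fell without the arrays of slide 5 and 2 rose and 3 fell with normexp. Background was clearly exceeded on 2 of 3 vehicle arrays for Melk.

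Feedback genes of growth factor signalling and death genes fell more often than they rose. Of 28 EGF receptor, DUSP and Sprouty genes 4 rose and 8 fell. Dusp6, the phosphatase of ERK, read 3.90, 4.42 and 4.83 after vehicle and 0.93, 0.60 and 1.45 after dexamethasone (-3.39 ± 0.30, adjusted p = 4.95e-05), and Dusp5, its nuclear relative, 1.93, 1.49 and 1.89 after vehicle and -0.46, -0.15 and -0.91 after dexamethasone (-2.28 ± 0.24, adjusted p = 0.000129), both opposite to Dusp1. Of these 2 rose without vehicle 1 or dexamethasone 1, and 5 fell without vehicle 2. Of 33 BCL2 family and caspase genes 7 rose and 12 fell. Fas, the death receptor, read 1.68, 1.80 and 1.55 after vehicle and -0.76, -0.92 and -1.62 after dexamethasone (-2.78 ± 0.22, adjusted p = 2.49e-05). Bcl2l11, the death-promoting BIM, rose (-4.03, -4.52 and -4.36 after vehicle and -2.56, -2.52 and -1.58 after dexamethasone, 2.09 ± 0.30, adjusted p = 0.000884), and the survival gene Bcl2a1, made mainly by white blood cells, was at least 1.41-fold lower (adjusted p = 0.00464). In the EGF receptor list 4 rose and 5 fell without the arrays of slide 5 and 3 rose and 4 fell with normexp. A signal well above background was seen on 2 of 3 vehicle arrays for Bcl2l11.

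Clock genes split evenly. Of 22 tested, 5 rose and 5 fell. Usp2, a deubiquitinase of clock proteins, rose (-0.67, -1.23 and -0.13 after vehicle and 2.24, 2.21 and 2.68 after dexamethasone, 3.05 ± 0.33, adjusted p = 0.000154), in the direction of Per1. Dbp, an output factor, read 4.11, 4.18 and 5.50 after vehicle and 1.07, 1.41 and 2.99 after dexamethasone (-2.78 ± 0.49, adjusted p = 0.00282). In the clock list 3 rose without vehicle 3, dexamethasone 1 or dexamethasone 2. Of 29 immediate early genes 7 rose and 6 fell. Ccn2, a matricellular growth factor, read -1.56, -1.59 and -1.996 after vehicle and 2.44, 2.31 and 2.22 after dexamethasone (4.04 ± 0.35, adjusted p = 4e-05), Egr1, the growth factor response factor, 3.11, 2.18 and 2.12 after vehicle and -0.40, 0.01 and -0.38 after dexamethasone (-2.72 ± 0.36, adjusted p = 0.000495), and Zfp36, which destabilizes cytokine messages, rose (2.02 ± 0.54, adjusted p = 0.0231). Of the immediate early genes 4 rose without vehicle 3 or dexamethasone 2. The call was lost for Zfp36 without vehicle 3, dexamethasone 1 or dexamethasone 2 (adjusted p up to 0.0837). Spots stood well above background on 2 of 3 vehicle arrays for Zfp36.

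Chaperone genes leaned upward. Of 31 cytosolic heat shock genes 10 rose and 1 fell (median 0.51, 0.31 without slide 5), the latter Hspa4l. Hspa1a, the inducible HSP70, read -2.34, -2.49 and -2.62 after vehicle and 0.34, 0.59 and 0.34 after dexamethasone (2.91 ± 0.20, adjusted p = 1.08e-05), and Hspa8, the constitutive form, 5.70, 5.91 and 5.67 after vehicle and 6.93, 7.01 and 7.38 after dexamethasone (1.35 ± 0.18, adjusted p = 0.000527). Of 29 genes of the unfolded protein response 6 rose and 1 fell, 24.1% called and so near the 20.1% of all genes. The 1 that fell was Ddit3, named after its value was seen. Edem1, which hands misfolded glycoproteins to degradation, read 6.13 and 6.02 after vehicle (replicate 1 missing) and 9.67, 9.76 and 10.00 after dexamethasone (3.73 ± 0.17, adjusted p = 3.5e-06), and Herpud1, of the same path, 5.69, 5.80 and 5.57 after vehicle and 6.69, 6.68 and 6.81 after dexamethasone (1.04 ± 0.14, adjusted p = 0.000538). Hspa5, the chaperone BiP, did not pass (0.40 ± 0.18, adjusted p = 0.166). In that response 3 rose without vehicle 3. Of 25 ATF4 targets and brakes of mTOR 4 rose and 4 fell, with a median of -0.33 (-0.01 with slide as a block, -0.62 within slide 1 and 0.47 within slide 5). Atf4 itself did not pass (-0.33 ± 0.19, adjusted p = 0.282), and 2 rose without vehicle 1, vehicle 3, dexamethasone 1 or dexamethasone 2, and 2 fell without vehicle 1 and 7 fell without vehicle 3. In the unfolded protein response list 3 rose and 0 fell without the arrays of slide 5. In the ATF4 list 4 rose and 10 fell without the arrays of slide 5.

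Higher calls outnumbered lower ones among ribosomal and proteasome genes, with small differences. Of 85 ribosomal protein genes 15 rose and 1 fell, 18.8% called against 20.1% of all genes, with a median of 0.46 (0.43 with slide as a block, 0.26 within slide 1 and 0.54 within slide 5). Rpl10a read 4.51, 4.86 and 4.58 after vehicle and 5.52, 5.46 and 5.55 after dexamethasone (0.86 ± 0.14, adjusted p = 0.00183). Of the ribosomal genes 3 rose without vehicle 1 or dexamethasone 3 and 5 rose without dexamethasone 2 and 7 rose without vehicle 2 and 9 rose without vehicle 3, and copies of ribosomal genes may share signal. Of 33 proteasome subunits 6 rose and 0 fell, 18.2% called against 20.1% of all genes, and 2 rose without slide 5. Among the 6 were Psma6 and Psmc5 (0.82 ± 0.16, adjusted p = 0.00497). Of 64 respiratory chain subunits 3 rose and 0 fell, and 0 rose without vehicle 1 or dexamethasone 3 and 1 rose without vehicle 2, dexamethasone 1 or dexamethasone 2. In the ribosomal protein list 3 rose and 0 fell without the arrays of slide 5 and 25 rose and 0 fell with normexp.

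Liver regulators and zonation genes changed in part. Of 43 liver transcription factors and nuclear receptors 7 rose and 8 fell. Foxa2, a pioneer factor of liver enhancers, read 4.74, 3.44 and 5.05 after vehicle and 1.74, 1.48 and 2.01 after dexamethasone (-2.67 ± 0.35, adjusted p = 0.000512), and Onecut1, HNF6, 3.84, 2.91 and 5.14 after vehicle and 1.60, 1.93 and 1.93 after dexamethasone (-2.14 ± 0.49, adjusted p = 0.0113). Klf15, a factor for amino acid breakdown, rose (4.05, 3.66 and 4.30 after vehicle and 5.31, 5.41 and 5.88 after dexamethasone, 1.53 ± 0.23, adjusted p = 0.00114), as did the coactivator Ppargc1b (2.23 ± 0.43, adjusted p = 0.00432). Of the transcription factors 5 fell without vehicle 1 or dexamethasone 2. Of 15 pericentral and Wnt target genes 1 rose and 4 fell. Glul, glutamine synthetase of the innermost hepatocytes, read 2.88, 3.09 and 2.98 after vehicle and 4.71, 4.60 and 3.67 after dexamethasone (1.34 ± 0.31, adjusted p = 0.0117), while the Wnt targets Axin2 (-1.53 ± 0.30, adjusted p = 0.00525) and Tbx3 (-2.23 ± 0.52, adjusted p = 0.0119) fell. Of the pericentral genes 2 fell without vehicle 2, dexamethasone 1 or dexamethasone 3. Of 15 periportal genes 4 rose and 1 fell, the risen ones including Cdh1, E-cadherin (1.11 ± 0.21, adjusted p = 0.00425), beside Sds and Ass1. Taken within slides 1 and 5, the differences were -1.70 and -3.04 for Foxa2, -1.32 and -3.20 for Onecut1, 1.62 and 0.69 for Glul and 0.86 and 1.73 for Cdh1. Signals were well above background on 2 of 3 dexamethasone arrays for Axin2.

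Growth hormone, coagulation and iron genes gave a few strong members. In the growth hormone and IGF list 1 of 22 rose and 5 fell. Igfbp3, the main carrier of IGF1, rose (5.16, 5.63 and 5.46 after vehicle and 6.46, 6.45 and 6.55 after dexamethasone, 1.07 ± 0.18, adjusted p = 0.00214), its ternary complex partner Igfals fell (-1.20 ± 0.28, adjusted p = 0.013), and Igf1 did not pass (0.07 ± 0.30, adjusted p = 0.915). In this list 2 fell without vehicle 2, vehicle 3 or dexamethasone 1 and 3 fell without dexamethasone 2 or dexamethasone 3. Of 30 coagulation genes 2 rose and 1 fell, 10.0% called against 20.1% of all genes. F3, tissue factor, read -1.60, -2.25 and -2.85 after vehicle and 0.33, 0.12 and -0.21 after dexamethasone (2.32 ± 0.30, adjusted p = 0.000436). Prothrombin, F2, did not pass (-0.09 ± 0.25, adjusted p = 0.858). Of 35 iron and metal genes 5 rose and 5 fell. Hjv, the hemojuvelin coreceptor that drives hepcidin, read 3.77, 3.69 and 3.80 after vehicle and 1.90, 1.65 and 1.74 after dexamethasone (-1.99 ± 0.22, adjusted p = 0.000181). Tfrc, the transferrin receptor, read 3.52, 3.001 and 2.21 after vehicle and 4.32, 4.50 and 4.54 after dexamethasone (1.55 ± 0.28, adjusted p = 0.00324), and Atp7b, the copper exporter, -1.22, -1.22 and -1.15 after vehicle and 0.31, 0.48 and 0.67 after dexamethasone (1.69 ± 0.15, adjusted p = 5.52e-05). In the growth hormone and IGF list 1 rose and 3 fell without the arrays of slide 5 and with normexp. In the coagulation list 2 rose and 3 fell with slide as a fixed block and 2 rose and 4 fell with normexp. Leaving out 1 array ended the call of Igfals without vehicle 3 (adjusted p up to 0.0515). Within slides 1 and 5 the differences were 1.32 and 2.34 for Tfrc.

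A set of genes passed from background to clear signal. On all 3 dexamethasone arrays and on no vehicle array 82 genes were well above background, and 74 of these were called higher, 29 of them with a symbol. In the other direction 187 genes were above background on all vehicle arrays and on no dexamethasone array, and 154 were called lower, 53 with a symbol. Both sets were picked by detection on the same arrays that gave the calls, so these call counts are no separate test. The share of spots well above background ran from 58.3% to 69.7% after vehicle and from 53% to 67.8% after dexamethasone. Its part in the difference between 187 and 82 was not tested. Slc5a11, a myo-inositol carrier, read -6.19, -5.71 and -4.24 after vehicle and 1.60, 1.38 and 1.08 after dexamethasone, at least 63.9-fold higher (adjusted p = 1.01e-05). Rorb, an orphan nuclear receptor best known from retina and brain, read -6.59, -7.34 and -6.08 after vehicle and -1.44, -1.56 and -1.44 after dexamethasone, at least 8.98-fold higher (adjusted p = 2.44e-05). Trim47, a ubiquitin ligase, left detection, with -2.04, -1.30 and -2.45 after vehicle and -6.22, -5.02 and -5.53 after dexamethasone, at least 4.80-fold lower (adjusted p = 0.000355), as did Stc1, the glycoprotein hormone stanniocalcin, with -2.95, -2.33 and -1.83 after vehicle and -6.40, -6.58 and -4.87 after dexamethasone, at least 3.54-fold lower (adjusted p = 0.000824). Among large changes measured in both groups, Slc4a8, a bicarbonate carrier, read -3.95, -4.27 and -3.74 after vehicle and 1.39, 1.80 and 1.58 after dexamethasone (5.58 ± 0.19, adjusted p = 5.9e-07). Tcim, a regulator of proliferation, read -3.74, -1.96 and -2.79 after vehicle and 2.46, 1.95 and 1.83 after dexamethasone (4.91 ± 0.43, adjusted p = 4.46e-05), and Spink1, a trypsin inhibitor, 4.39, 4.29 and 4.13 after vehicle and 0.37, 0.62 and 0.91 after dexamethasone (-3.63 ± 0.29, adjusted p = 2.57e-05).

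The same injection in females gave a response that could be tested against the male one gene by gene. Of the 4895 genes called in males, 4729 differed in the same direction in females, whether called there or not. Calls in the same direction in both sexes numbered 3380, which is 69.1% of the male and 57.1% of the 5918 female calls. A further 7 were called in the opposite direction. The female minus male difference of the effect passed for 7 other genes, or 0.0288% of those tested, while 2433 had an unadjusted p under 0.05. None of these 7 was called when any 1 male array was left out. Capn8, a calpain of the stomach lining, was below background on every male vehicle array (-6.19, -6.12 and -6.24 after vehicle and -2.17, -1.53 and -2.01 after dexamethasone) and rose in males, at least 6.67-fold higher (adjusted p = 2.29e-05), with a female difference of 0.43 ± 0.33. Fut4, a fucosyltransferase of Lewis X antigens, read -1.04, -1.35 and -0.83 after vehicle and 3.14, 2.73 and 3.30 after dexamethasone in males (4.13 ± 0.25), and its female difference was 0.77 ± 0.25. Faxdc2, a fatty acid hydroxylase domain gene, read -0.74, -0.91 and -0.84 after vehicle and 0.17, 0.33 and 0.68 after dexamethasone in males (1.22 ± 0.22) and differed more in females, by 3.83 ± 0.22. The adjusted p of the difference between the sexes was 0.036 for Capn8, Fut4 and Faxdc2.

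A further 3 features have no gene symbol and are identified here by the 60 bases of their probes, shown because no name describes them:
BG664561: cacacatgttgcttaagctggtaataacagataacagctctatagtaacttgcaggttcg
TC600507: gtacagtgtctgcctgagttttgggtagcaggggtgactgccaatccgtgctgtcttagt
A_44_P760016: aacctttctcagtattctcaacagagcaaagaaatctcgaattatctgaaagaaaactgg
BG664561 fell in males, with 0.35, 0.05 and -0.14 after vehicle and -1.50, -1.60 and -1.42 after dexamethasone (-1.59 ± 0.17, adjusted p = 0.00015), against 0.49 ± 0.17 in females. TC600507 rose in males, with -1.36, -1.14 and -1.04 after vehicle and 1.09, 1.27 and 1.84 after dexamethasone (2.59 ± 0.27, adjusted p = 0.000117), against -0.55 ± 0.27 in females. A_44_P760016 was below background on every male dexamethasone array, at least 3.37-fold lower (adjusted p = 0.0001), against 0.38 ± 0.32 in females. The adjusted p of the difference was 0.036, 0.036 and 0.0372.

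**Figure D5:**
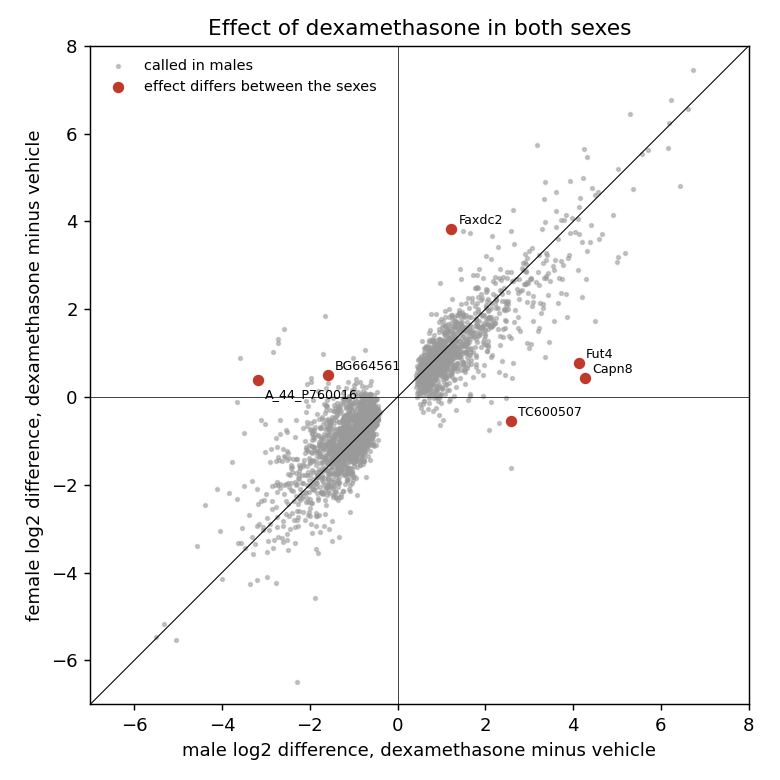
Female (vertical axis) against male (horizontal axis) log2 difference, dexamethasone minus vehicle, of the genes with a symbol that were called in males (grey) and of 6 features whose effect differed between the sexes (red); the line marks equal effects. Capn8, Fut4 and TC600507 lie far to the right of the line and Faxdc2 above it.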

How the data were processed

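Liver RNA was measured on single-colour Agilent rat 4x44 arrays with Cy3 label (500 ng RNA per array), and the 6 male arrays are described here. The scanner intensity values were deposited as Feature Extraction text, version 9.1.3.1 per the file headers (9.1 per the submitters' processing notes), in which the authors' processed signal is already background-subtracted. A table of log10 values, also deposited by the authors, has medians of 1.49 to 1.52 per array, and its scaling and centring are not given in the sources used here; it served as an alternative. From the processed signal, log2 values minus the 75th percentile of each array were computed, and control spots and 211 spots of the 12 arrays marked as outliers were left out. Probes had to be well above background on at least 3 of the 12 arrays with at least 2 usable arrays per group, and the brightest probe stood for its gene. Of 41012 probes, 20386 were matched to a current gene symbol through the RefSeq table. A linear model over all 12 arrays (limma 3.58.1 in R 4.3.3, residual df 8, prior df 2.39) gave each male difference, with Benjamini-Hochberg adjustment over all 24296 genes, and its female minus male interaction. Python 3.11.15, numpy 2.4.6, pandas 2.3.3, scipy 1.17.1 and matplotlib 3.10.9 were used for tables and plots.

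A few measured genes are not reported here. The genes and gene lists were chosen with earlier results of these data known. Genes are named if they are among 18 fixed glucocorticoid-related genes or among the 15 largest changes in each direction. These largest changes were taken only from called genes with a symbol whose male groups did not overlap. Their separation was thus a condition of the choice. Also named are the 4 most changed called and the 2 brightest uncalled members of a list, and genes that passed the sex interaction. Others named are said to be chosen after their values were seen. A probe that no array of a group read above background gives only a bound, which sets the brighter group's mean against the lowest signal well above background, or the probe's own where that is higher, on the dim group's arrays. Nothing in the labels says that replicate numbers link arrays across groups, so the numbers were not treated as pairs. The deviations of same-numbered arrays from their group means correlated at 0.0112, -0.0034 and 0.5247. The last of these pairs shared a slide. Vehicle 2 and dexamethasone 1, which shared another slide, correlated at 0.2731. With slide as a random block the correlation within a slide was 0.512. The main fit left slide out and treated arrays of the same slide as independent. The number of arrays limits the precision. Near-identical genes may share probe signal. Alternatives were another background correction (normexp), scaling, filter, probe rule, slide as a block, the log10 table, male arrays only and leaving out each array.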

Additional observations from a re-analysis of the deposited data

Results flagged for a closer look

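The effect of dexamethasone differed between females and males at an adjusted p under 0.05 (limma interaction term, 24296 genes) for 7 features, of which 6 are described. The female minus male effect on the log2 scale was -3.85 for Capn8 and -3.36 for Fut4, where the female value was the lower one. It was 2.61 for Faxdc2, where females rose more. Among the unnamed features it was 2.08 for BG664561, -3.14 for TC600507 and 3.56 for A_44_P760016. Capn8 and A_44_P760016 were below background in 1 male group, so the size of their difference depends on dim signals.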

How the results depend on the processing

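Under 19 other fits no gene called in the male comparison was called in the opposite direction. Of the 4895 called genes, 3016 also changed at least 2-fold, a number that was 1392 with normexp and 2124 to 3631 under the other 18 fits. The count of called genes was 7744 with slide as a random block and 6233 with slide as a fixed block. It was 4001 with normexp background correction, 3836 without the filter on dim probes, 4058 without slide 5 and 3304 with the male arrays alone. Leaving out 1 array gave 3679 to 3960 calls. With the replicate number as a block, which the labels do not give as a pairing, 6333 genes were called, among them 4828 of the 4895. Of the 58 gene and marker lists, the calls rose by more than 1.5 times in 8 and fell by more than that in 7 with normexp, in 11 and 2 with slide as a fixed block, in 3 and 7 without slide 5, in 0 and 8 without the filter, in 1 and 20 with the male arrays alone and in 12 and 0 with the replicate block. The more frequent direction of a list turned in 3 lists with normexp, with slide as a fixed block or without slide 5, in 4 with the male arrays alone (amino acid transporters, glucose use, acute phase, and DNA replication and mitosis) and in 1 with the replicate block, the receptor and chaperone list with 4 higher and 5 lower. The share of calls that were higher ranged from 44.8% to 50.6%. Without the filter the median of all genes was 0.12.

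The 7 calls between the sexes were less steady. There were 28 with normexp, 13 with a trended prior, 4 when a probe had to be well above background on all 6 male arrays, 0 without the filter (2815 at an unadjusted p under 0.05) and 0 without slide 5 (3665). Leaving out any 1 male array gave 0 in limma, with 1671 to 3088 at an unadjusted p under 0.05. The cause was not tested. With normexp the list medians were closer to 0, at -0.59 for chemokines, -0.52 for interferon-inducible genes and -0.28 for MHC class II. Signal over background limits the dim genes, for which only bounds are given.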
